A study of Homo sapiens with 12 samples.

Results

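HEG1 and 6 genes that act with it in the cerebral cavernous malformation (CCM) complex were followed through 12 RNA sequencing libraries of SW1736 cells. SW1736 is a cell line established from anaplastic thyroid carcinoma. HEG1 was chosen by its measured response to triiodothyronine (T3) in cells without the added receptor, where it was the strongest. The other members, KRIT1, CCM2, PDCD10, RASIP1, ITGB1BP1 and MAP3K3, were chosen as its partners in and around that complex. The 7 genes are 7 of 56832 symbols in the count files, and 6 of them were among the 14431 genes with enough counts to test.

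The cells carried the vector pCDH-TRB, which stably expresses thyroid hormone receptor beta, or the empty vector pCDH-EV. They are called TRB and EV cells here. All 4 groups of 3 libraries were first kept for 24 h without hormone, in medium free of phenol red with charcoal-stripped serum. Then EV vehicle and TRB vehicle cells received the NaOH solvent for 24 h, and EV T3 and TRB T3 cells received 10 nM T3 for 24 h. Every group is the same single cell line, and the labels do not name the promoter that drives the receptor or say whether the stable cells are a clone. The labels do not say that the 3 libraries of a group came from separate cultures, so each p-value measures the spread between these libraries, which may be technical.

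HEG1 is a membrane protein with a long mucin-like outer part, and its short inner tail binds KRIT1. KRIT1, CCM2 and PDCD10 form a scaffold whose loss in endothelial cells causes cerebral cavernous malformations, clusters of leaky, enlarged brain capillaries. In endothelium CCM2 holds the kinase MAP3K3 (MEKK3) and restrains its pathway through MEK5 and ERK5 to the transcription factors KLF2 and KLF4, ITGB1BP1 (ICAP1) links KRIT1 to the tail of integrin beta 1, RASIP1 binds HEG1 and the small GTPase Rap1, and PDCD10 binds GCKIII kinases. T3 acts through nuclear receptors that bind DNA at repeats of a short half-site.

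HEG1 lies on the minus strand of human chromosome 3, at chr3:124965710-125055958 of GRCh38 in GENCODE release 29, and no other annotated gene overlaps it. The 250 bases just upstream of its RefSeq transcript start, chr3:125055998-125056247 on the minus strand of GRCh38.p14, are shown because HEG1 had the strongest response. Capitals mark CpG dinucleotides.
HEG1 upstream: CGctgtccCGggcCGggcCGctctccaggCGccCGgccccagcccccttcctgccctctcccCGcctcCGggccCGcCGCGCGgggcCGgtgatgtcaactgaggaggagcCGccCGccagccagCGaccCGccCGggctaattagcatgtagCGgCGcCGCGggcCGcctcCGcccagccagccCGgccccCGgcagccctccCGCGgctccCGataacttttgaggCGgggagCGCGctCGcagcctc
This stretch has 78.4% GC and 33 CpG, against medians of 58.0% and 11 over 35116 RefSeq promoters, of which 8.15% have at least as many CpG. The half-site AGGTCA was searched on both strands and was not in it, and 12.1% of the promoters hold that hexamer. Of its 1-letter relaxations, which include it, NGGTCA was absent and AGGNCA occurred once, against 32.6% and 47.3% of promoters. No paired half-sites were found as the direct repeat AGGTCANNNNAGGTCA, the inverted repeat AGGTCATGACCT or the everted repeat TGACCTNNNNNNAGGTCA. These letters were searched for in this window alone.

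The libraries held 3819306 to 13086717 counts in genes. THRB, the gene of the receptor, was at 79.8 to 80.4 CPM (the count relative to the scaled size of the library) in TRB vehicle. It was at 190 to 322 CPM in TRB T3 and 12.3 to 18.3 in the EV libraries, so the levels followed the vector labels. In TRB cells THRB RNA was thus itself higher with T3, while the 2 EV groups overlapped. The part of this receptor difference in the results was not tested. Replicate 2 of TRB T3 stood apart from its group. With it the biological coefficient of variation of TRB T3 was 0.629, without it 0.0576, and in the other groups 0.0807 to 0.219. In that library genes poor in GC were high and genes rich in GC were low. The results below are therefore given with 12 libraries. T3 changes in TRB cells are also given with the 11 others for the tested members and the named, tested genes that work next to the complex. Replicate 3 of EV T3 was the shallowest library, and 92.0% of the entries in its file were alignments to more than 1 place. Such alignments were 69.6% to 92.0% of entries in EV T3 and 33.1% to 66.3% in EV vehicle, so those groups did not overlap. They were 43.7% to 66.9% in TRB vehicle, 58.9% and 66.6% in TRB T3 replicates 1 and 3, and 19.0% in replicate 2. The part of this difference in the results was not tested. Of 10 endothelial markers, CDH5, KDR, FLT1 and EMCN had no count in any library and only ESAM reached 10 counts. The summed endothelial markers were at 35.8 to 45.4 CPM in EV vehicle, 40.9 to 62.3 in EV T3, 44.4 to 50.6 in TRB vehicle and 11.9 to 48.2 in TRB T3. The lowest sum came from replicate 2 of TRB T3, and its part in the results was not tested. Of 8 thyroid markers, TSHR and FOXE1 had no count, and the sum of all 8 was at most 12.4 CPM.

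HEG1 RNA was scarce without hormone and abundant with it, in both cell types. In TRB vehicle cells its libraries were at 3.66, 2.15 and 2.10 CPM, from 25 to 36 counts each. In TRB T3 cells they were at 287, 234 and 256 CPM, from 1301 to 3822 counts. All 3 libraries with T3 lay far above all 3 without it, and replicate 2, the library that stood apart, was the lowest of the high ones. Separation of these groups, of any size, was seen in 40.8% of tested genes. The mean rose from 2.64 ± 0.885 to 259 ± 26.5 CPM (SD, n = 3 each), a 98.2-fold difference of means, with single pairs of libraries between 64.0-fold and 137-fold. In edgeR's quasi-likelihood test with Benjamini-Hochberg adjustment the log2 fold change was 6.62 (SE 0.280, adjusted p = 5.12e-07). With 11 libraries it was 6.75 (SE 0.192, adjusted p = 1.27e-10). By log2 fold change HEG1 was 30th of all 14431 tested genes in TRB cells. Among the 1370 genes that passed the test and averaged 3 or more in log2 CPM, it was 4th.

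In EV cells HEG1 was at 2.17, 3.19 and 2.76 CPM with vehicle and at 85.8, 90.7 and 78.7 CPM with T3. These are the values that chose it, so they carry no test. The means were 2.71 ± 0.510 and 85.1 ± 6.01 CPM (SD, n = 3 each), a 31.4-fold difference, and the fitted log2 fold change was 4.94 (SE 0.263). By log2 fold change it was 2nd of all tested genes in EV cells. HEG1 was picked as the strongest T3 response in these cells, so its high rank was set by that choice and is no result. Of the other genes that passed the test with the same minimum level, the highest was C2orf54, at 4.28 (SE 0.604).

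The order of HEG1 was vehicle, EV T3, TRB T3. The vehicle libraries of EV and TRB cells overlapped and their means differed by less than their SDs. Every TRB T3 library was above every EV T3 library, by 2.58-fold to 3.64-fold between single libraries. The means with T3 stood 3.04-fold apart, a log2 difference of 1.61 (SE 0.221), or 1.73 (SE 0.149) with 11 libraries. The T3 response was larger in TRB than in EV cells by 1.68 on the log2 scale (SE 0.330), or by 1.83 (SE 0.281) with 11 libraries. These comparisons use the libraries that chose HEG1 and are given without a test. Per kilobase of exon HEG1 stood at percentile 31.6 of 18650 annotated genes in EV vehicle and 30.3 in TRB vehicle. With T3 it stood at percentile 72.3 in EV and 90.3 in TRB cells.

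**Figure D1:**
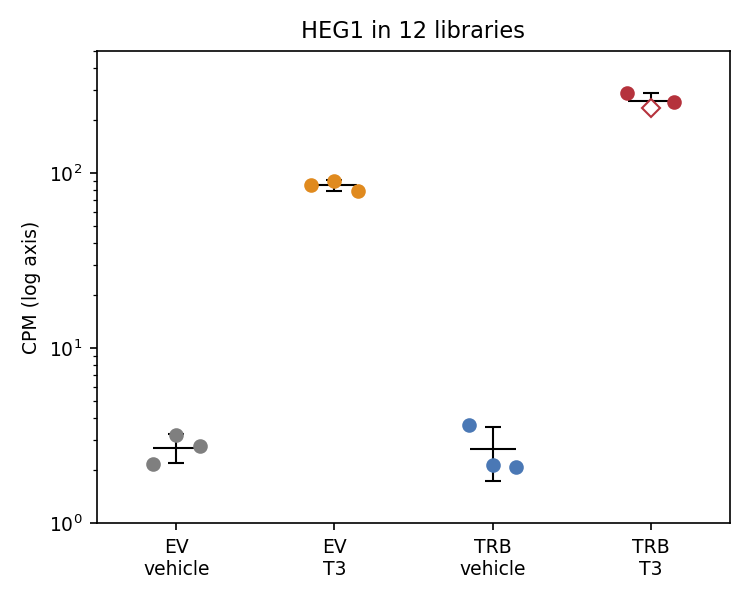
HEG1 in each of the 12 libraries, in CPM on a log axis. Points are libraries, the open diamond is replicate 2 of TRB T3, and lines are the mean ± SD of 3 libraries. Both vehicle groups lie between 2.10 and 3.66 CPM, EV T3 between 78.7 and 90.7, and TRB T3 between 234 and 287.

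None of the 3 core scaffold genes, KRIT1, CCM2 and PDCD10, passed for T3 in TRB cells in the fits to 12 or to 11 libraries. In TRB cells PDCD10 passed upward in 4 alternative fits and CCM2 downward in 2. Per kilobase of exon, PDCD10 was the highest of the 7 members in EV vehicle, at 21.8 CPM per kilobase, followed by KRIT1 at 11.2, ITGB1BP1 at 5.64, MAP3K3 at 5.57, CCM2 at 3.28, HEG1 at 0.273 and RASIP1 at 0.155. ITGB1BP1 and MAP3K3 are too close in this order to be told apart by their spread. In TRB T3 with replicate 2 left out, HEG1, at 27.3 CPM per kilobase, was above PDCD10 at 20.3 and KRIT1 at 9.26. With all 3 TRB T3 libraries PDCD10 was at 36.4 and HEG1 at 26.1.

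Among the members, 2 of the 6 tested passed for T3 against vehicle in TRB cells with 12 libraries, HEG1 upward and ITGB1BP1 downward. Of all tested genes 14.7% passed. With 11 libraries 3 of 6 passed, the third being MAP3K3, against 33.3% of genes. Fitted on the TRB libraries alone, 1 of 6 passed with replicate 2, which was HEG1, against 4.52% of genes, and 4 of 6 without it, against 50% of genes. HEG1, chosen for its T3 response in EV cells, is 1 of those that passed in each of these fits. That choice favoured its passing, so the counts with it are no result about the members as a set. For T3 against vehicle in EV cells none of the 5 members other than HEG1 passed in edgeR or in DESeq2, none had an unadjusted p below 0.05, and 0.229% of genes passed. With 11 libraries 1 of the 5, MAP3K3, passed, against 7.33%.

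KRIT1, the scaffold protein that binds the HEG1 tail, was at 67.1, 72.7 and 69.4 CPM in EV vehicle and at 51.7, 67.9 and 39.5 in EV T3. It was at 50.2, 58.8 and 54.6 CPM in TRB vehicle and at 58.2, 166 and 56.7 in TRB T3. The 166 CPM of TRB T3 replicate 2 was the only TRB T3 value above the range of the other groups, and the lowest value of all was the shallow EV T3 replicate 3. The log2 fold change for T3 in TRB cells was 0.77 (SE 0.379, edgeR adjusted p = 0.194) with 12 libraries and 0.12 (SE 0.178, adjusted p = 0.648) with 11. In EV cells it was -0.39 (SE 0.378, adjusted p = 0.935). KRIT1 lies at chr7:92198969-92246166 on the minus strand, and 41.0% of its exon bases are shared with the same-strand gene AC000120.3, so its counts depend on how reads in both were assigned.

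CCM2, the adaptor that joins KRIT1 to PDCD10 and MAP3K3, was at 31.3, 23.4 and 26.0 CPM in EV vehicle and at 30.9, 23.5 and 37.2 in EV T3. It was at 31.5, 27.6 and 30.5 CPM in TRB vehicle and at 23.6, 3.06 and 25.5 in TRB T3. All TRB T3 libraries were below all TRB vehicle libraries, with replicate 2, at 17 counts, far below the rest. Groups that did not overlap were seen in 40.8% of tested genes in this comparison. The log2 fold change in TRB cells was -0.77 (SE 0.534, edgeR adjusted p = 0.346) with 12 libraries and -0.24 (SE 0.175, adjusted p = 0.335) with 11. In EV cells it was 0.18 (SE 0.533, adjusted p = 0.950). CCM2 lies at chr7:44999475-45076469 on the plus strand.

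PDCD10, which stabilises GCKIII kinases, was at 59.7, 82.9 and 71.4 CPM in EV vehicle and at 56.5, 78.2 and 27.8 in EV T3. It was at 50.0, 57.4 and 54.8 CPM in TRB vehicle and at 65.5, 225 and 67.2 in TRB T3. Every TRB T3 library was above every TRB vehicle library, replicate 2 by the widest margin. Of all tested genes, 40.8% had groups that did not overlap in this comparison. T3 in TRB cells gave a log2 fold change of 1.14 (SE 0.484, edgeR adjusted p = 0.144) with 12 libraries and 0.34 (SE 0.285, adjusted p = 0.398) with 11. In EV cells it was -0.39 (SE 0.480, adjusted p = 0.938). PDCD10 lies at chr3:167683298-167734939 on the minus strand.

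ITGB1BP1, which competes with integrin activators at the beta 1 tail and binds KRIT1, was lower with T3 in TRB cells and level in EV cells. It was at 40.4, 35.8 and 40.8 CPM in TRB vehicle and at 25.7, 28.4 and 25.7 in TRB T3. No TRB T3 library reached the lowest TRB vehicle library, and replicate 2 lay close to the others. Such a gap between these groups was seen in 40.8% of tested genes. The mean fell from 39.0 ± 2.74 to 26.6 ± 1.57 CPM (SD, n = 3 each), a log2 fold change of -0.55 (SE 0.146, edgeR adjusted p = 0.0281). With 11 libraries it was -0.55 (SE 0.112, adjusted p = 0.00213). With TRB libraries alone it did not pass (adjusted p = 0.235), nor in 9 of 12 fits that each left out 1 library. It passed without TRB T3 replicate 2, EV T3 replicate 2 or EV T3 replicate 3. In a bulk library fewer cells with an RNA and less of it per cell cannot be told apart.

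In EV cells ITGB1BP1 was at 38.7, 37.4 and 36.9 CPM with vehicle and at 35.5, 36.7 and 40.5 with T3. The groups overlapped, with a log2 fold change of -0.0042 (SE 0.146, adjusted p = 0.995). With T3, the log2 difference of TRB from EV cells was -0.50 (SE 0.146, edgeR adjusted p = 0.0721) with 12 libraries and -0.48 (SE 0.114, adjusted p = 0.00991) with 11. The test of whether the T3 response differed between the cell types gave -0.55 (SE 0.206, adjusted p = 0.195) with 12 libraries and -0.55 (SE 0.151, adjusted p = 0.0281) with 11. ITGB1BP1 lies at chr2:9403475-9423547 on the minus strand, and 33.1% of its exon bases overlap exons of ASAP2 on the other strand. The strand setting of the counting is not given in the sources used here, so reads of the shared bases may be uncertain. ASAP2 itself changed by -0.12 (SE 0.224, adjusted p = 0.729) with T3 in TRB cells with 12 libraries and by -0.40 (SE 0.130, adjusted p = 0.0327) with 11.

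MAP3K3, the kinase that CCM2 holds, was at 38.7, 32.9 and 30.5 CPM in EV vehicle and at 46.9, 42.3 and 46.1 in EV T3. It was at 37.0, 34.2 and 37.9 CPM in TRB vehicle and at 44.7, 14.8 and 47.5 in TRB T3. With T3 all EV libraries and 2 of 3 TRB libraries were above every vehicle library of their cell type, and TRB T3 replicate 2 was the lowest of all 12. Groups that did not overlap were seen in 26.9% of genes for T3 in EV cells. The log2 fold change in EV cells was 0.41 (SE 0.342, edgeR adjusted p = 0.935) with 12 libraries and 0.42 (SE 0.114, adjusted p = 0.0469) with 11. In TRB cells it was -0.02 (SE 0.340, adjusted p = 0.970) with 12 libraries and 0.39 (SE 0.122, adjusted p = 0.0265) with 11. The estimate in EV cells hardly moved, while its SE fell from 0.342 to 0.114, when TRB T3 replicate 2 was left out. Of 20 alternative fits MAP3K3 passed in EV cells in 1, the fit without that library. Over the 20 its log2 fold change in EV cells was 0.22 to 0.56. The test of a difference between the cell types gave -0.03 (SE 0.168, adjusted p = 0.933) with 11 libraries. MAP3K3 lies at chr17:63622415-63696303 on the plus strand, and 6.58% of its exon bases overlap LIMD2 on the other strand. LIMD2 itself changed by 1.61 (SE 0.555, edgeR adjusted p = 0.0780) with T3 in TRB cells with 12 libraries. With 11 its change was 2.09 (SE 0.286, adjusted p = 0.000109). In EV cells it was 0.95 (SE 0.352, adjusted p = 0.107) with 11. LIMD2 was scarce, at 1.76 CPM in TRB vehicle and 5.25 in TRB T3. Its part in the MAP3K3 counts was not tested.

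RASIP1, the Rap1 effector that binds HEG1 and is largely a gene of endothelium, had 0 to 10 counts in each library and was not tested. Its means were 0.642 CPM in EV vehicle, 0.630 in EV T3, 0.503 in TRB vehicle and 0.300 in TRB T3, or 0.450 without replicate 2. The libraries of all 4 groups overlapped, and no difference was detectable at this depth. RASIP1 lies at chr19:48720587-48740721 on the minus strand.

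**Figure D2:**
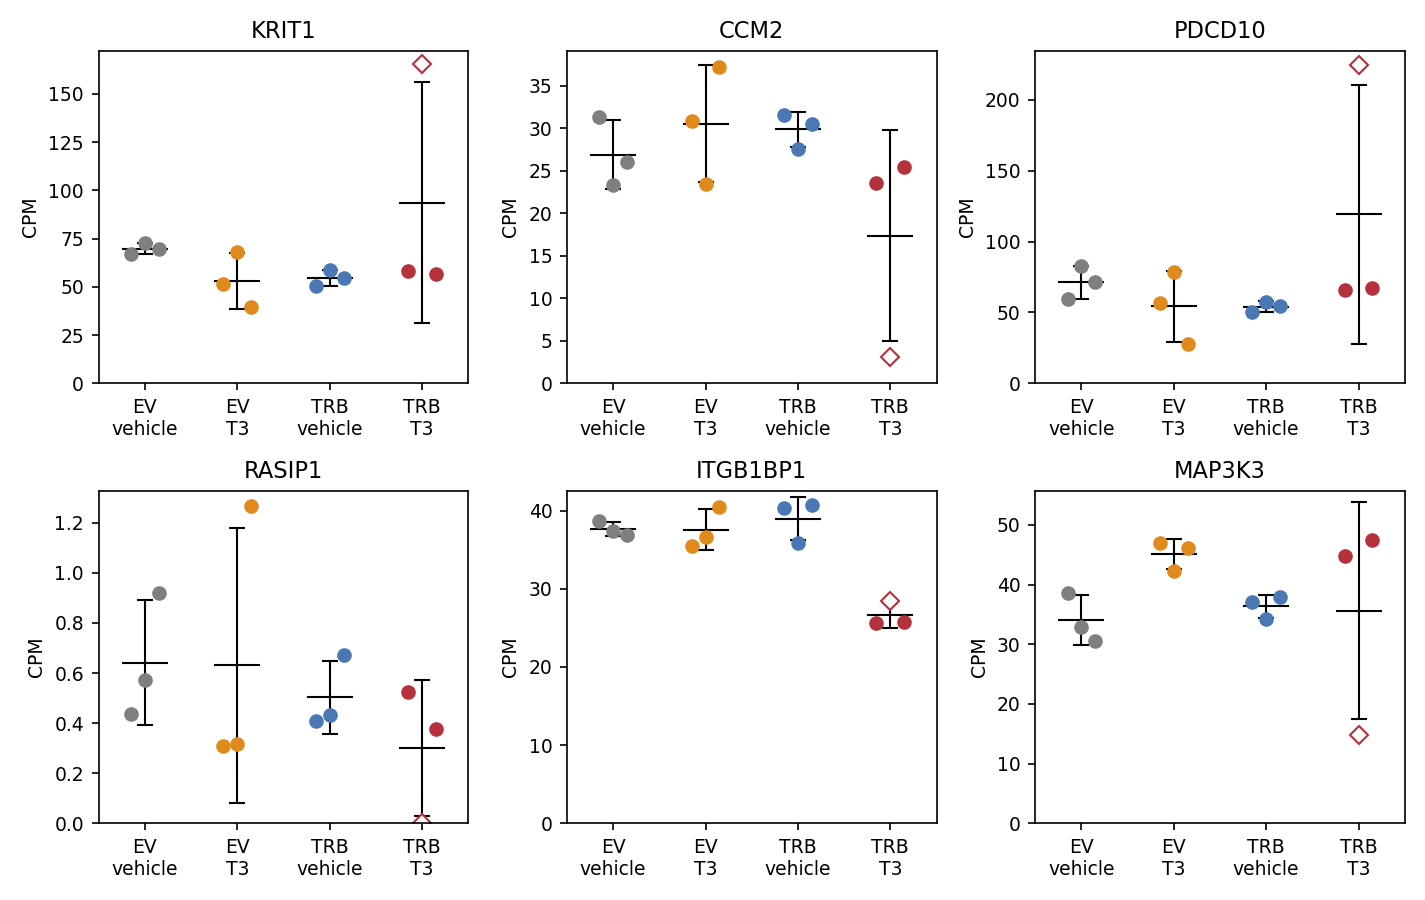
The 6 other members in each library, in CPM on linear axes that start at 0. Points are libraries, open diamonds are replicate 2 of TRB T3, and lines are the mean ± SD of 3 libraries. That library is the highest for KRIT1 (166) and PDCD10 (225) and the lowest for CCM2 (3.06) and MAP3K3 (14.8), while ITGB1BP1 is low in all 3 TRB T3 libraries.

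The distance of TRB T3 replicate 2 from replicates 1 and 3 ran with the GC content of the members. On the log2 CPM scale it was 1.76 for PDCD10 (36.2% GC in its longest transcript) and 1.52 for KRIT1 (38.5%), and 0.14 for ITGB1BP1 (42.8%). It was -0.21 for HEG1 (49.1%), -2.91 for CCM2 (54.6%), -1.63 for MAP3K3 (56.9%) and -1.59 for the barely counted RASIP1 (67.8%). Among all tested genes in bins of GC content, the median ran from 1.64 in the bin centred on 35.6% to -3.61 in the bin centred on 66.0%. CCM2 lay below the 10th percentile of the bin centred on 54.1%, which was -2.42, and ITGB1BP1 lay just below that of the bin centred on 42.5%, which was 0.19. The other 4 tested members lay between the 10th and the 90th percentile of their bins.

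With GC offsets, which take a smooth trend on GC content out of each library, HEG1 changed by 6.66 (SE 0.176) with T3 in TRB cells. In that fit 4 of the 6 members passed, against 42.8% of genes, and with TRB T3 replicate 2 also left out 5 of 6 passed, against 56% of genes. In the latter CCM2 changed by -0.36 (SE 0.110, edgeR adjusted p = 0.00960), PDCD10 by 0.34 (SE 0.102, adjusted p = 0.00880), ITGB1BP1 by -0.63 (SE 0.125, adjusted p = 0.000441) and MAP3K3 by 0.26 (SE 0.101, adjusted p = 0.0393). KRIT1 changed by 0.08 (SE 0.0717, adjusted p = 0.350). HEG1, chosen for its response in EV cells, is 1 of the members counted in each fit.

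**Figure D3:**
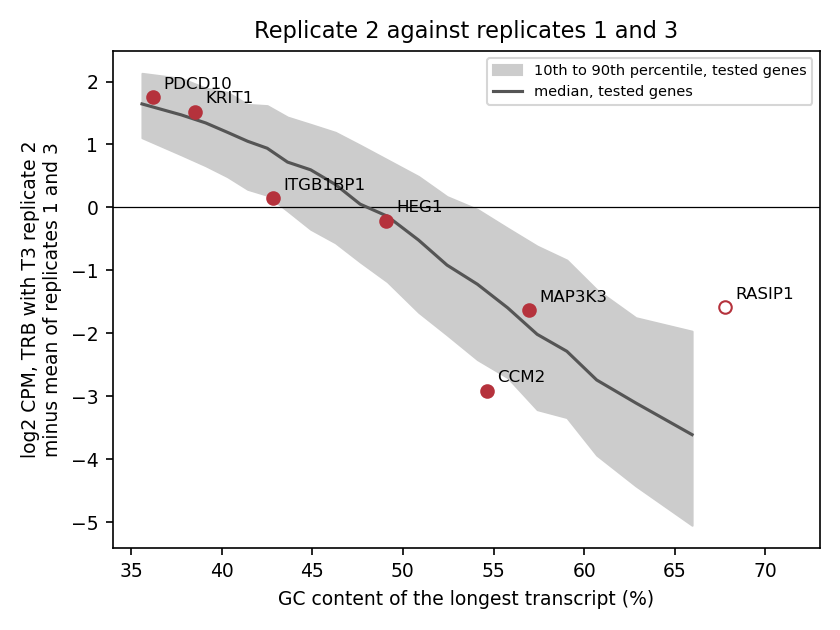
Difference in log2 CPM between replicate 2 of TRB T3 and the mean of replicates 1 and 3, against the GC content of each gene's longest transcript in percent. The line and band are the median and the 10th to 90th percentile of tested genes in 20 bins, filled points are tested members, and the open point is RASIP1. Members poor in GC lie above 0 (PDCD10, 1.76) and those rich in GC lie below it (CCM2, -2.91).

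**Figure D4:**
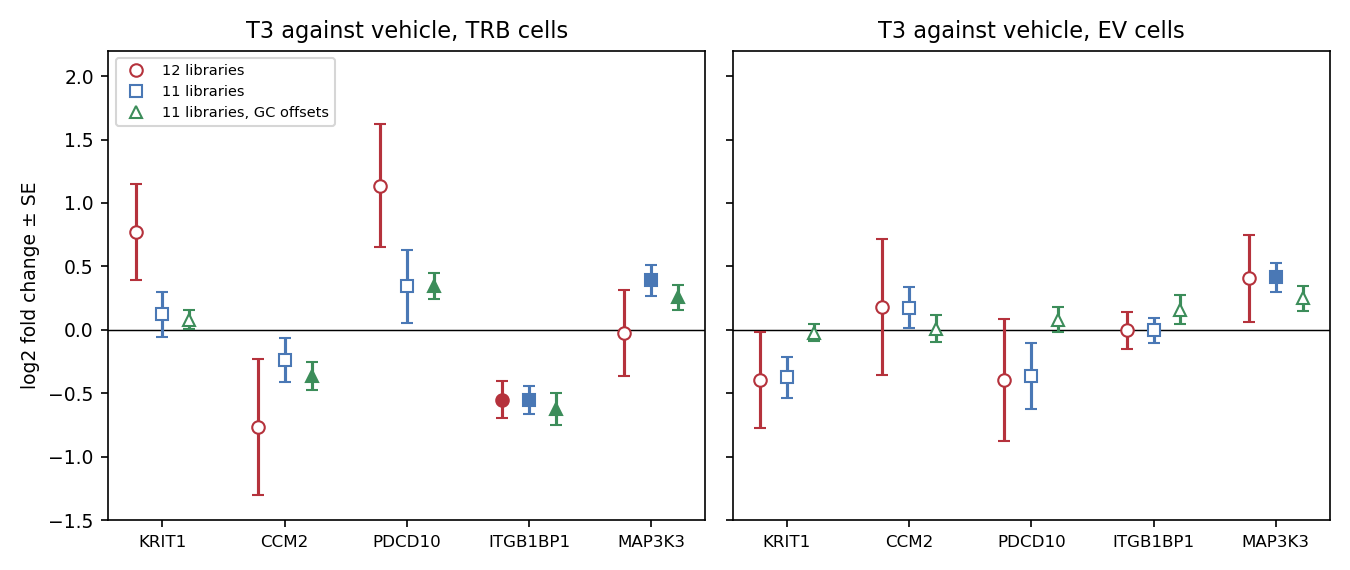
Log2 fold change ± SE for T3 against vehicle in TRB cells (left) and EV cells (right), for the 5 tested members other than HEG1. Circles are fits to 12 libraries, squares leave out TRB T3 replicate 2, triangles also take out the GC trend, and filled symbols have an adjusted p below 0.05. ITGB1BP1 in TRB cells is filled in every fit shown (-0.55, -0.55 and -0.63), and error bars shrink without that library. Its call was lost in 11 of 21 alternative fits, none of which is shown.

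Between TRB and EV cells in vehicle none of the 5 members other than HEG1 passed in edgeR or in DESeq2, none had an unadjusted p below 0.05, and 0.0208% of genes passed. KRIT1 and PDCD10 were lower in every TRB vehicle library than in every EV vehicle library, which 36.3% of genes did in 1 direction or the other. Their log2 differences were -0.35 (SE 0.377) and -0.40 (SE 0.479), with an edgeR adjusted p of 1.00 each. Fitted on the vehicle libraries alone they were -0.33 (SE 0.0828, adjusted p = 0.0329) and -0.39 (SE 0.106, adjusted p = 0.0398), where 11.2% of genes passed. Between TRB and EV cells with T3 none of the 5 passed in edgeR with 12 libraries, against 6.68% of genes, although 2 had an unadjusted p below 0.05 and ITGB1BP1 passed in DESeq2. With 11 libraries ITGB1BP1 passed, against 19.7%. For the difference in T3 response between the cell types none of the 5 passed with 12 libraries in either tool, against 2.59% in edgeR, and 2 had an unadjusted p below 0.05. With 11 libraries ITGB1BP1 passed, against 15.2%.

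Genes that work next to the complex were taken from 5 lists of 61 genes in all, of which 51 were tested. With T3 in TRB cells 13 of 51 (25.5%) passed with 12 libraries, 6 higher and 7 lower, against 14.7% of all tested genes. Their median log2 fold change was 0.23, against 0.01 over all tested genes. With 11 libraries 18 of 51 (35.3%) passed, 9 higher and 9 lower, against 33.3%, with a median of 0.12 against -0.01. Fitted on the TRB libraries alone, 1 of 51, KLF4, passed with replicate 2, against 4.52% of genes, and 29 of 51 without it, against 50% of genes. In EV cells 1 of 51 passed with 12 libraries and 5 of 51 with 11, against 0.229% and 7.33% of genes.

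In the pathway from MAP3K3 to ERK5, 2 of 9 tested genes passed in TRB cells, KLF4 downward and THBS1 upward, against 14.7% of all genes. KLF4, a zinc-finger factor that this pathway induces in endothelium, was at 60.2, 63.7 and 54.7 CPM in TRB vehicle and at 21.2, 24.5 and 25.7 in TRB T3. Every TRB T3 library was below every other library of the series, replicate 2 included. For T3 against vehicle in TRB cells, 40.8% of tested genes had groups that did not overlap. T3 changed KLF4 by -1.32 on the log2 scale in TRB cells (SE 0.181, edgeR adjusted p = 0.000704), or by -0.87 with GC offsets (SE 0.308, adjusted p = 0.0388). Without TRB T3 replicate 2 the change was -1.30 (SE 0.161), and -1.44 (SE 0.108) with GC offsets as well. In EV cells KLF4 went from 50.2 ± 4.40 to 46.1 ± 7.97 CPM (SD, n = 3 each), a log2 fold change of -0.12 (SE 0.178, adjusted p = 0.941). The difference between those responses was -1.20 (SE 0.253, adjusted p = 0.0348). With GC offsets on 12 libraries it was -0.57 (SE 0.428, adjusted p = 0.376) and did not pass. It passed at -1.14 (SE 0.144, adjusted p = 1.53e-05) with GC offsets and TRB T3 replicate 2 left out. The call was lost in 13 of 19 alternative fits, 9 of them among the 12 that left out 1 library. Among those 12 it held without TRB T3 replicate 2, TRB T3 replicate 3 or EV T3 replicate 2. In EV cells KLF4 passed in 1 of 20 alternative fits, with GC offsets and TRB T3 replicate 2 left out, at -0.29 (SE 0.0952, adjusted p = 0.0422). KLF2, its close relative and the usual companion of KLF4 in this pathway, had 3 to 12 counts per group in all and was not tested. MAP2K5, which encodes MEK5, changed by -0.17 (SE 0.180, adjusted p = 0.536), and MAPK7, which encodes ERK5, by -0.17 (SE 0.500, adjusted p = 0.834). Without TRB T3 replicate 2 they stood at -0.17 (SE 0.160, adjusted p = 0.448) and 0.33 (SE 0.192, adjusted p = 0.212). With 11 libraries 3 of the 9 genes passed, against 33.3% of all genes. The third was MEF2D, of a factor family that ERK5 phosphorylates and named here after its value was seen, at 0.67 (SE 0.140, adjusted p = 0.00265).

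THBS1, the secreted matrix protein thrombospondin 1, was at 111, 127 and 131 CPM in EV vehicle and at 211, 216 and 223 in EV T3. It was at 140, 125 and 127 CPM in TRB vehicle and at 267, 227 and 246 in TRB T3. Both T3 groups were above both vehicle groups in all libraries. Separate T3 and vehicle groups were seen in 40.8% of tested genes in TRB cells and in 26.9% in EV cells. The log2 fold change was 0.92 (SE 0.138, edgeR adjusted p = 0.00130) in TRB cells and 0.82 (SE 0.138, adjusted p = 0.0487) in EV cells. With 11 libraries these were 1.02 (SE 0.0981) and 0.82 (SE 0.0905). The call in EV cells was lost in 13 of 20 alternative fits, with an adjusted p of up to 0.695. These include 11 of the 12 fits that left out 1 library, all but the fit without TRB T3 replicate 2.

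Of the 17 tested genes of small GTPase signalling around Rap1 and Cdc42, 2 rose and 3 fell in TRB cells, against 14.7% of all genes that passed. With 11 libraries 7 of 17 passed, against 33.3%. ARHGAP29, a GTPase-activating protein that acts with RASIP1 and RADIL downstream of Rap1, was at 258, 310 and 315 CPM in TRB vehicle and at 797, 2500 and 725 in TRB T3. All TRB T3 libraries were above all others, with replicate 2 far above its group. TRB T3 and TRB vehicle libraries did not overlap in 40.8% of tested genes. The log2 fold change was 2.19 (SE 0.454, edgeR adjusted p = 0.00854) with 12 libraries and 1.42 (SE 0.233, adjusted p = 0.000473) with 11. RAPGEF3 (EPAC1), a cAMP-driven activator of Rap1, fell by 2.01 on the log2 scale, from 25.7 ± 1.48 to 6.24 ± 2.85 CPM (SD, n = 3 each, adjusted p = 0.00143 by edgeR). RAP1GAP, which switches Rap1 off, fell by 1.90 on the log2 scale (SE 0.542, adjusted p = 0.0397). With 11 libraries those changes were -1.65 and -1.36. The RAP1GAP call was lost in 11 of 21 alternative fits (adjusted p up to 0.248), and among those that left out 1 library it held only without TRB T3 replicate 2 or 3. The other 2, named after their values were seen, were CDC42 at 0.99 and RHOB at -0.92. With 11 libraries they stood at 0.58 and -0.72. The CDC42 change was between 0.51 and 1.17 in the same alternatives, and its call was lost in 9, including those without any 1 vehicle library or without EV T3 replicate 1. The RHOB call was lost in 8, among them those without TRB vehicle replicate 2 or 3, TRB T3 replicate 1 or EV vehicle replicate 3, and RHOB was at -0.41 with GC offsets.

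RAP1A, which encodes 1 of the Rap1 proteins, changed by -0.01 (SE 0.318, edgeR adjusted p = 0.989) with 12 libraries and by -0.50 (SE 0.157, adjusted p = 0.0259) with 11. RAP1B changed by 0.23 (SE 0.277, adjusted p = 0.581) with 12 libraries and by -0.07 (SE 0.197, adjusted p = 0.819) with 11. RADIL, a Rap1 effector related to RASIP1, had no count in any library, which allows up to 0.759 CPM in the shallowest (3 counts, for counting error only). In EV cells RAP1A, RAPGEF3 and RAP1GAP did not pass in the fit to 12 libraries and passed with 11, at -0.64, -0.65 and -0.55, as did FERMT1 of the integrin list at -0.48. With GC offsets on 12 libraries 6 of 49 tested genes of the 5 lists passed in EV cells, 3 higher and 3 lower, against 4.45% of genes. The lower were RAPGEF3, RAP1GAP and FERMT1, at -0.86, -0.79 and -0.52, and RAP1A was at -0.21 (adjusted p = 0.578). The higher were THBS1 at 0.89, ARHGAP29 at 0.56 and MEF2C, named after its value was seen, at 0.86. Without GC offsets ARHGAP29 was at 0.09 (SE 0.435, adjusted p = 0.975) in EV cells with 12 libraries.

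Of 7 tested genes of integrin activation, 3 passed in TRB cells with 12 libraries and all 3 were lower, against 14.7% of all genes. With 11 libraries 5 of 7 passed, 4 lower and 1 higher, against 33.3%. FERMT1 and FERMT3, members of the kindlin family that activates integrins, changed by -0.62 (SE 0.132, edgeR adjusted p = 0.00995) and -1.88 (SE 0.518, adjusted p = 0.0337). Without TRB T3 replicate 2 they stood at -0.66 (SE 0.0945) and -1.43 (SE 0.385). FERMT3 was scarce, at 4.84 CPM in TRB vehicle and 1.19 in TRB T3. Its call was lost in 8 of 21 alternative fits (adjusted p up to 0.162), and among those that left out 1 library it held without TRB T3 replicate 1 or 2, EV T3 replicate 2 or 3, or EV vehicle replicate 2. TLN2, a talin that couples integrins to actin, changed by -0.83 (SE 0.215, adjusted p = 0.0260), or by -0.60 (SE 0.157) with 11 libraries. Its call was lost in 11 of 21 alternative fits (adjusted p up to 0.208), and among those that left out 1 library it held without TRB T3 replicate 1 or 2 or EV T3 replicate 3. ITGB1, the integrin subunit that ITGB1BP1 binds, went from 688 to 755 CPM with 12 libraries and stood at 453 CPM with replicate 2 left out. Its log2 fold change was 0.13 (SE 0.387, adjusted p = 0.831) with 12 libraries and -0.55 (SE 0.188, adjusted p = 0.0383) with 11. TLN1, the other talin, named after its value was seen, changed by 0.03 (SE 0.452, adjusted p = 0.973) with 12 libraries and by 0.52 (SE 0.151, adjusted p = 0.0178) with 11.

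Of the 16 GCKIII kinase and STRIPAK genes, all of them tested, 2 rose in TRB cells and none fell, against 14.7% of all genes that passed. STRIP2, a scaffold of the STRIPAK phosphatase complex, rose from 5.71 ± 1.73 to 14.8 ± 0.390 CPM (SD, n = 3 each). Its log2 fold change was 1.37 (SE 0.276, edgeR adjusted p = 0.00718), or 1.40 with 11 libraries. CTTNBP2NL, a partner of the same complex, changed by 1.12 (SE 0.214, adjusted p = 0.00539), or by 0.89 with 11 libraries. The kinases that PDCD10 binds did not pass with 12 or with 11 libraries. STK24 changed by 0.02 (SE 0.158, adjusted p = 0.944), STK25 by -0.59 (SE 0.511, adjusted p = 0.441) and STK26 by 0.56 (SE 0.393, adjusted p = 0.353) with 12. With 11 they stood at -0.09, -0.07 and -0.06.

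Of 3 other partners, TLNRD1, which binds CCM2, passed in TRB cells. It rose from 36.6 ± 2.81 to 78.3 ± 23.4 CPM (SD, n = 3 each), a log2 fold change of 1.10 (SE 0.303, edgeR adjusted p = 0.0344), or 1.36 with 11 libraries. The call was lost in 7 of 18 alternative fits (adjusted p up to 0.125), among them those without any 1 TRB vehicle library, TRB T3 replicate 1 or 3, or EV vehicle replicate 3. CCM2L, the relative of CCM2, had 2 to 10 counts per group and was not tested.

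**Figure D5:**
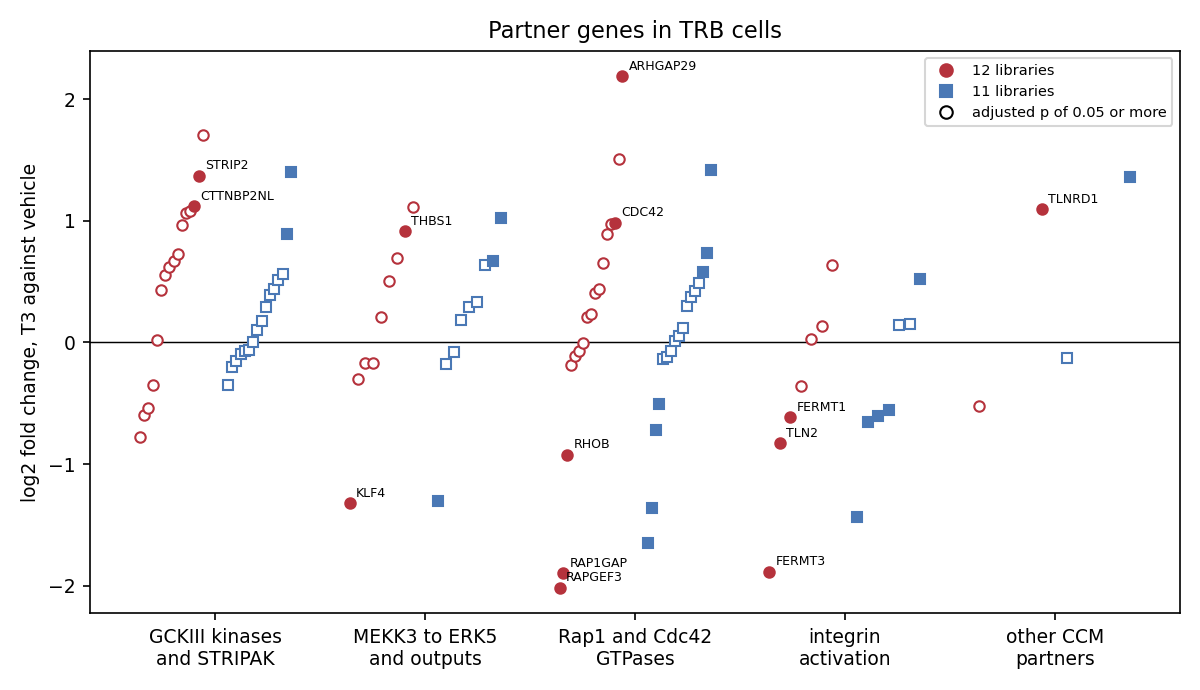
Log2 fold change for T3 against vehicle in TRB cells for each tested gene of the 5 lists, ordered by size within a list. Red circles are fits to 12 libraries, blue squares leave out TRB T3 replicate 2, and open symbols have an adjusted p of 0.05 or more. Named points are those that passed with 12 libraries, from ARHGAP29 at 2.19 to RAPGEF3 at -2.01.

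The genes whose level was most like that of HEG1 were found by Pearson's r of log2 CPM over the 12 libraries, among 10094 genes that averaged 3 or more in log2 CPM. The 12 points fall into 4 groups that share their treatment, so r describes the group pattern. THBS1 came first with r = 0.987, followed by PLA2G16, a phospholipase, with 0.987 and CLIC5, a chloride channel protein, with 0.982. Next were RP11-475N22.4 (0.978), the secreted lipase LIPG (0.977), RHPN2 (0.976), fibronectin FN1 (0.976) and UGT1A8 (0.975). UGT1A8 shares exons with other UGT1A genes, so its counts are uncertain. FN1 went from 14.7 to 70.7 CPM in EV cells and from 9.57 to 242 CPM in TRB cells, while UGT1A8 went from 19.8 to 37.6 and from 19.1 to 39.5. The most opposite were TOX3, a nuclear HMG-box protein, with r = -0.979, NBPF1, of a family of near-identical copies, with -0.970, and the chemokine receptor CXCR4 with -0.970. CXCR4 went from 28.7 to 13.6 CPM in EV cells and from 27.6 to 7.86 in TRB cells. With 11 libraries these r lay between 0.973 and 0.990 for the 8 alike and between -0.979 and -0.976 for the 3 opposite. With r above 0.9 there were 107 genes over 12 libraries and 259 over 11.

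Within the complex, r with HEG1 over 12 libraries was 0.17 for KRIT1, -0.39 for CCM2, 0.24 for PDCD10, -0.73 for ITGB1BP1 and 0.05 for MAP3K3. Over 11 libraries it was -0.33, -0.18, -0.09, -0.68 and 0.86. The values for MAP3K3 differ by the 1 library in which it was lowest.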

How the data were processed

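Total RNA of SW1736 cells was sequenced in 12 libraries, grouped by the labels into 4 groups of 3. Per the submitters' processing notes, CASAVA 1.7, STAR 2.7, HTSeq 0.10, DESeq2 and the build hg38 were used. The authors deposited a count per gene symbol for each library, and the closing lines for reads of no gene were left out. Depth was 3819306 to 13086717 counts. A table of normalized values was not used. A further marker list is not reported here.

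Counts were fitted in R 4.3.3 with edgeR 4.0.16: filterByExpr (minimum count 10, total 15), TMM scaling, 1 coefficient per group, quasi-likelihood tests over all tested genes, Benjamini-Hochberg adjustment at 0.05. SE is the log2 change divided by the root of F. CPM is after TMM with the factors of all 12 libraries. DESeq2 1.42.0, RLE size factors, no filter, GC offsets (spline, 5 degrees of freedom, GENCODE 29 transcripts), a replicate block, the compared groups alone and leaving out each library were alternatives. The fit was tested on simulated data with the same spread in every library and no GC trend. That test does not cover a library like TRB T3 replicate 2.

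The members and lists were chosen with earlier results of these data known. Named genes are the members, THRB, 13 fixed partners, per list the 3 largest changes past the threshold for T3, and the 8 genes most like and 3 most unlike HEG1. AFDN and TLNRD1 were matched by the older symbols MLLT4 and MESDC1. Promoters come from RefSeq (GRCh38.p14). Other lists of markers, all epithelial, mesenchymal and mesothelial, gave no result used here beyond their sums: 2124 to 4694 CPM and 19.1 to 52.6 CPM.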

Additional observations from a re-analysis of the deposited data

Results flagged for a closer look

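These genes are listed because the test of a difference in T3 response between TRB and EV cells passed for them. The values are log2 response in TRB cells minus log2 response in EV cells, with edgeR adjusted p-values.

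With 12 libraries KLF4, the factor downstream of MAP3K3 and ERK5, passed at -1.20 (SE 0.253, adjusted p = 0.0348), and without TRB T3 replicate 2 it stood at -1.17 (SE 0.211, adjusted p = 0.00300). With GC offsets on 12 libraries it stood at -0.57 (SE 0.428, adjusted p = 0.376). With GC offsets and TRB T3 replicate 2 left out it stood at -1.14 (SE 0.144, adjusted p = 1.53e-05). MUC13, the neighbour of HEG1 described under the other observations, was at 1.54 (SE 0.232, adjusted p = 0.00750) with 12 libraries and at 1.54 (SE 0.188, adjusted p = 0.000199) without that library. The other 8 passed when that library was left out and not in the fit to all 12. ITGB1BP1, which binds KRIT1 and integrin beta 1, was at -0.55 (SE 0.151, adjusted p = 0.0281). CTTNBP2NL of the STRIPAK complex was at 0.97 (SE 0.177, adjusted p = 0.00321). RAPGEF3, the activator of Rap1, was at -1.003 (SE 0.203, adjusted p = 0.00594), and RAP1GAP, which switches Rap1 off, was at -0.81 (SE 0.177, adjusted p = 0.00924). ARHGAP29, the GTPase-activating protein, was at 1.32 (SE 0.315, adjusted p = 0.0145), and CDC42 was at 0.86 (SE 0.233, adjusted p = 0.0270). TLN2, a talin, was at -0.93 (SE 0.212, adjusted p = 0.0119), and TLNRD1, which binds CCM2, was at 1.22 (SE 0.327, adjusted p = 0.0249). In that fit 15.2% of all tested genes passed, against 2.59% with 12 libraries, and of the partner lists 8 of 51 (15.7%) passed. With GC offsets on 12 libraries ITGB1BP1, CTTNBP2NL, RAP1GAP, ARHGAP29, CDC42 and TLN2 passed and RAPGEF3 did not (adjusted p = 0.0578), against 19.3% of genes. TLNRD1 was not in that fit.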

How the results depend on the processing

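HEG1 T3 effect in TRB cells kept its direction and its adjusted p below 0.05 in all 21 alternative fits, from 6.48 to 6.95, with 6.63 under the replicate block. The replicate numbers do not pair the libraries by the labels, and of 18 pairs with the same number 12 had correlated deviations above 0.1, from -0.19 to 0.73; 7 of 12 libraries correlated best with their own number. The block left 2 members called for T3 in TRB cells. HEG1, chosen as a T3 responder, is among the members called for T3 in TRB cells in every fit.

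Members called for T3 in TRB cells numbered 1 with no count filter, 4 with GC offsets, 5 with GC offsets without TRB T3 replicate 2, 5 with GC offsets and the replicate block, 1 with the TRB libraries alone, 4 with those without replicate 2 (chosen after seeing the data), and 1 to 3 leaving out 1 library. Other members called for T3 in EV cells numbered 0 to 1 leaving out 1 library. For TRB against EV in vehicle they numbered 2 with the groups alone. For TRB against EV with T3 they numbered 1 in DESeq2, 1 with GC offsets, 2 with GC offsets without that library, 1 with GC offsets and the block, and 0 to 1 leaving out 1 library. For the interaction they numbered 1 in each of the 3 fits with GC offsets and 0 to 1 leaving out 1 library. Partner list genes called for T3 in TRB cells numbered 24 with GC offsets, 28 without that library, 24 with the block, 1 with the groups alone, 29 with those without that library, and 7 to 18 leaving out 1 library.

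Signs turned for these differences, listed as log2 values. HEG1 TRB against EV in vehicle ran from -0.34 to 0.11 leaving out 1 library. CCM2 T3 effect in EV cells was -0.0017 with GC offsets and the block. PDCD10 T3 effect in EV cells was 0.058, 0.079 and 0.048 with GC offsets, without TRB T3 replicate 2 and with the block. ITGB1BP1 T3 effect in EV cells was 0.031 in DESeq2, 0.037 with RLE, 0.19, 0.16 and 0.18 in those GC fits, 0.00033 with the groups alone, and -0.029 to 0.088 leaving out 1 library. MAP3K3 T3 effect in TRB cells was 0.018 in DESeq2, 0.020 with RLE, 0.34, 0.26 and 0.34 in the GC fits, 0.39 with the groups alone without that library, and -0.25 to 0.39 leaving out 1 library. MAP3K3 TRB against EV in vehicle was -0.042, -0.028 and -0.036 in the GC fits. MAP3K3 TRB against EV with T3 was 0.073 with GC offsets, 0.084 with the block and -0.58 to 0.094 leaving out 1 library. MAP3K3 interaction was 0.11, 0.0083 and 0.12 in the GC fits. KLF4 T3 effect in EV cells ran from -0.16 to 0.065 leaving out 1 library. The causes were not tested. Depth limits RASIP1, KLF2, CCM2L and RADIL, and HEG1 in vehicle rests on 10 to 39 counts per library.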

Other observations

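The genes around HEG1 on chromosome 3 were looked at after its values were seen, over 500 kb to each side of its start. Of the 6 tested neighbours MUC13, a membrane mucin whose start lies 102.1 kb downstream, passed for T3 in TRB cells, against 14.7% of all genes. Without TRB T3 replicate 2 it was 3 of 6, against 33.3%. MUC13 went from 14.8 ± 1.62 to 70.3 ± 4.08 CPM (SD, n = 3 each) in TRB cells, a log2 fold change of 2.25 (SE 0.170, edgeR adjusted p = 1.77e-05), and was 66.6 CPM or more in each TRB T3 library. In EV cells it went from 21.8 ± 1.32 to 35.4 ± 4.52 CPM, a log2 fold change of 0.70 (SE 0.165, adjusted p = 0.177) with 12 libraries and 0.71 (SE 0.129, adjusted p = 0.00749) without TRB T3 replicate 2. SLC12A8, a solute carrier that starts 156.9 kb upstream, changed by 0.47 (SE 0.340, adjusted p = 0.366) in TRB cells with 12 libraries and by 0.88 (SE 0.130, adjusted p = 0.000214) without that library. UMPS, of pyrimidine synthesis, changed by -0.38 (SE 0.139, adjusted p = 0.0978) and by -0.34 (SE 0.105, adjusted p = 0.0234). ITGB5, SNX4 and ZNF148 did not pass in TRB cells in either fit, at -0.73, 0.88 and 0.96 with 12 libraries and -0.32, 0.22 and 0.30 without that library.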
